A study of Mus musculus with 2 samples.

Results

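The genes described here move fatty acids and lipoproteins into and out of cells. They are Lpl, Gpihbp1, Cd36, Fabp4, Fabp5, Lipa, Apoe, Abca1 and Lrp1, chosen by symbol, and each symbol had its own row among the 32287 features measured, so that 9 of 9 members were found. The cells came from the thoracic aortas of 2 WT GFPiSMC mice, sequenced by the single-cell 3′ method. These mice carry the tamoxifen-inducible Cre Myh11-CreERT2 and the mT/mG reporter on the C57BL/6J strain. Both received tamoxifen at 1 mg/d on 5 days at 3 weeks of age, were male per the methods, and were 12 weeks old at harvest. Cre is driven by the Myh11 promoter, so the reporter marks SMCs, and the sort kept viable single cells without regard to GFP. No group differed in genotype or treatment, and the comparisons below are between cell types of the same aortas (n = 2), so that p-values measure only the spread between these 2 libraries.

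Fatty acids reach tissues largely as triglycerides in lipoproteins. Lipoprotein lipase (LPL) is made by stromal and parenchymal cells and by macrophages, and GPIHBP1 carries it across capillary endothelium and anchors it at the lumen, where it frees fatty acids. CD36 takes these up at the plasma membrane and the fatty acid binding proteins FABP4 and FABP5 hold them in the cytosol. LRP1 internalizes lipoprotein remnants, lysosomal acid lipase (LIPA) hydrolyzes the cholesteryl esters and triglycerides they deliver, and ABCA1 and APOE return cholesterol to the extracellular space.

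The deposited matrices held 8947 and 6263 cells, and the labels give 6278 and 4300 cells after the study's filtering. Limits of 1000 to 25000 UMIs, over 200 genes and a mitochondrial share under 10% left 6744 and 4698 cells, and removal of called doublets left 6539 and 4614, with medians of 5671 and 5396.5 UMIs per cell. The matrices shared 18 barcodes, 10 of them among analysed cells. Clusters were built without the members or any gene of their pathways and named from marker genes, so that each name used here means cells carrying those markers. SMCs numbered 2230 in aorta 1 and 1608 in aorta 2, and fibroblasts 1627 and 1143. There were 917 and 562 myeloid and 786 and 727 endothelial cells. Smaller were the lymphocytes (622 and 364), the mesothelial cells (275 and 159) and the erythroid cells (23 and 14). The 6 SMC markers summed to 42079 and 40133 CPM (UMIs per 1e+06 UMIs of the same cells) in SMCs and to 581 to 2706 CPM in lymphocytes, myeloid cells, fibroblasts and endothelial cells. The 9 members together made up 0.449% and 0.435% of all UMIs in analysed cells. All 9 passed the filter on low counts in the fit over cell types. A member is called different between cell types where edgeR's adjusted p, taken over all tested genes, is under 0.05, with an absolute log2 fold change over 1. In the values below the first is aorta 1 and the second aorta 2.

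**Figure D1:**
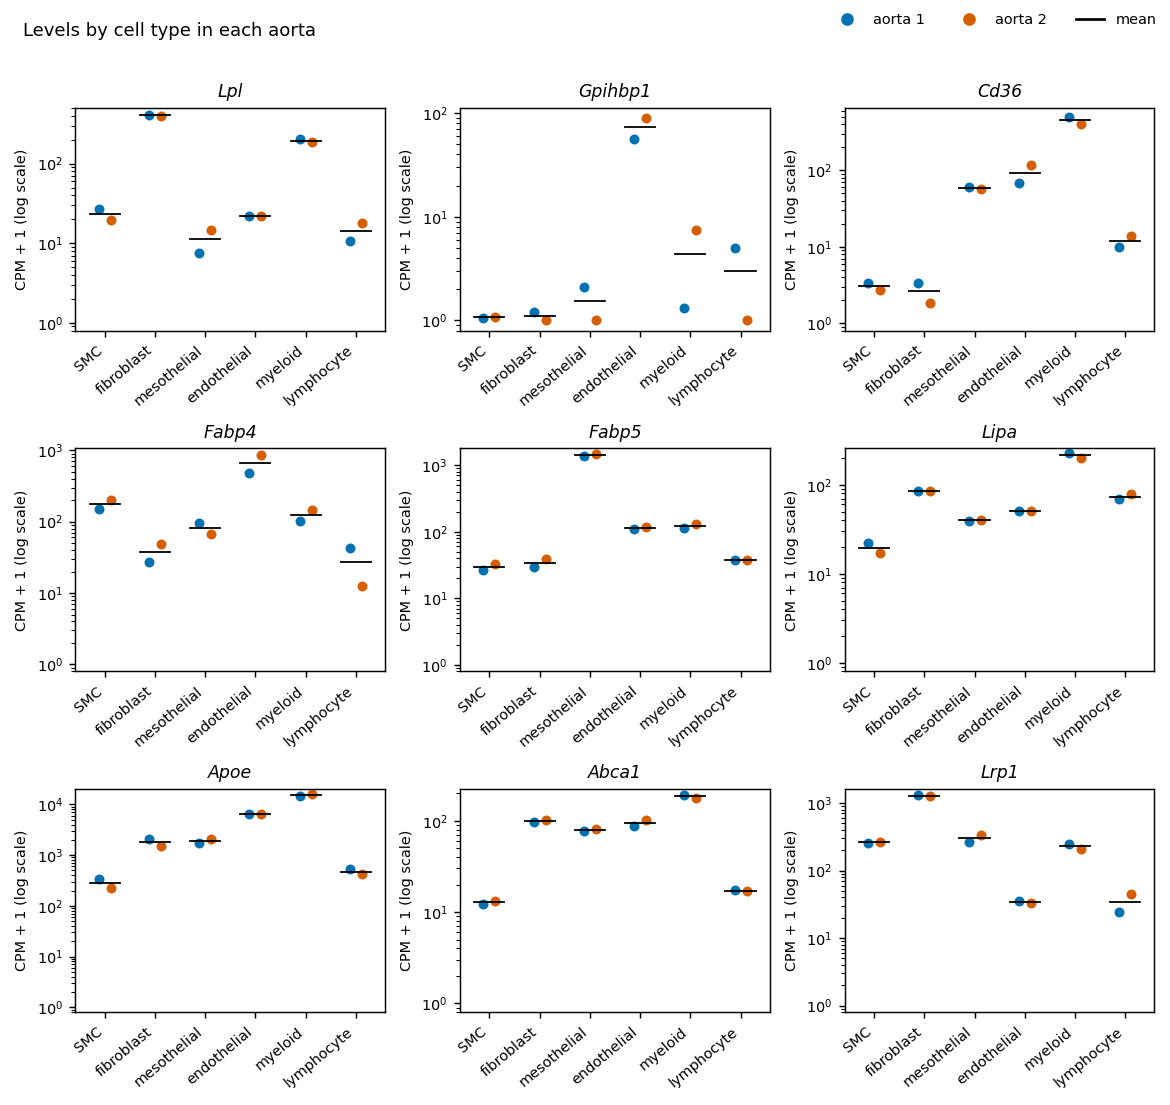
Level of each member (CPM + 1, log scale) in 6 cell types, with a point per aorta and a line at the mean of the 2. Gpihbp1 stands high in endothelial cells only, Lpl and Lrp1 are highest in fibroblasts, Fabp5 in mesothelial cells, and Cd36, Lipa, Apoe and Abca1 in myeloid cells.

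Members of the same route led in different cell types. Lpl and Lrp1 were highest in fibroblasts, Gpihbp1 and Fabp4 in endothelial cells, Fabp5 in mesothelial cells, and Cd36, Lipa, Apoe and Abca1 in myeloid cells. For each of the 9 the leading type lay above the type ranked next in both aortas, with no overlap. The lead in mean level over the next type ranged from 1.87-fold for Abca1 to 11.6-fold for Fabp5. For Gpihbp1 no fold is given, as the next type, myeloid cells, had 2 and 23 UMIs. After every cell was thinned to 1000 UMIs, the share of cells with a UMI was set against that in lymphocytes. The type used was the one with the largest mean share of the member's UMIs, which for Fabp4 was SMCs. Types were picked from the same UMIs, so this is no separate test. The exact 95% interval lay above that of lymphocytes for 9 of 9 members in both aortas. These intervals cover counting error only.

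Lpl (chromosome 8, 68880491 to 68907448, plus strand, GRCm38), which encodes the lipase itself, was a fibroblast and myeloid transcript. Its level was 411 and 390 CPM in fibroblasts and 201 and 185 CPM in myeloid cells, against 25.7 and 18.7 CPM in SMCs and 21.02 and 21.1 CPM in endothelial cells. The last 2 types overlapped, and lymphocytes (9.72 and 17.1 CPM) overlapped mesothelial cells (6.61 and 13.7 CPM). A UMI was found in 29.4% and 25.4% of thinned fibroblasts (68.6% and 63.4% unthinned, median depths 5912 and 5747 UMIs), against 0.322% and 0.824% of thinned lymphocytes (2.41% and 2.47% unthinned, median depths 4091.5 and 3913.5 UMIs). Endothelial cells were lower than fibroblasts by a log2 fold change of -4.37 ± 0.18 (SE; edgeR adjusted p = 3.5e-14), and SMCs were lower by -4.06 ± 0.15 (edgeR adjusted p = 5.7e-15). Myeloid cells did not pass the fold threshold against fibroblasts (log2 fold change -0.88 ± 0.13).

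Within the fibroblasts Lpl was not uniform. Cluster 6, led by Penk and Cilp, had 641 and 642 CPM, and cluster 8, led by Hhip and C1qtnf3, had 597 and 675 CPM. The cluster led by Pla1a, with Pi16 and Cd55 among its leading genes (cluster 12), had 261 and 262 CPM. Cluster 15, led by Tnfrsf11b and Fst, was lowest in each aorta, with 152 and 44.3 CPM. Clusters 6 and 8 overlapped each other and lay above the other 4 in both aortas.

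**Figure D2:**
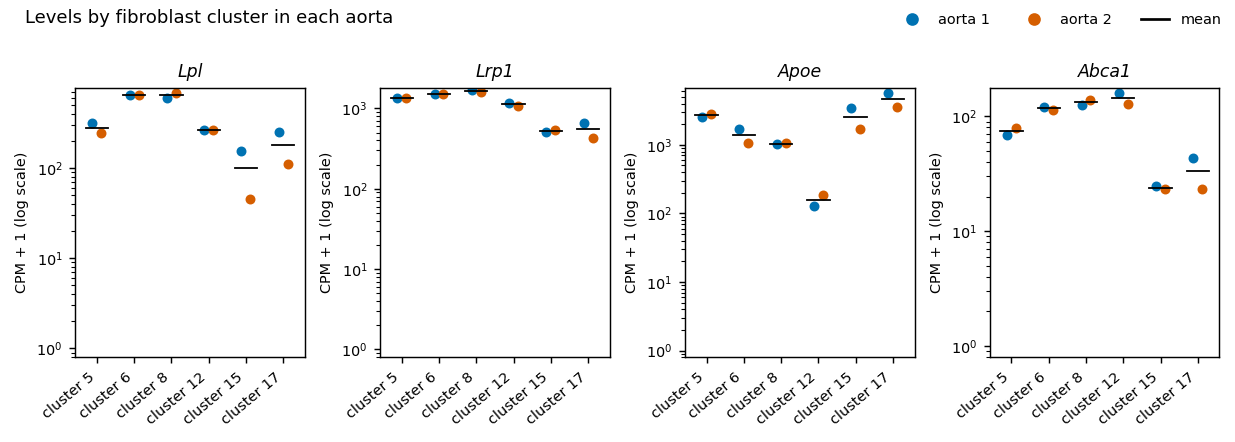
Levels (CPM + 1, log scale) of Lpl, Lrp1, Apoe and Abca1 in the 6 fibroblast clusters, with a point per aorta and a line at the mean. Clusters 15 and 17 are lowest in Lrp1 and Abca1, and cluster 12 is lowest in Apoe (127 and 186 CPM).

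Lrp1 (chromosome 10, 127538161 to 127621148, minus strand), the remnant receptor, was also highest in fibroblasts. Fibroblasts had 1307 and 1258 CPM, against 266 and 330 CPM in mesothelial cells, 257 and 265 CPM in SMCs and 249 and 204 CPM in myeloid cells. Endothelial cells (33.9 and 32.3 CPM) and lymphocytes (23.5 and 43.5 CPM) were lowest and overlapped. Fibroblasts were higher than each of the 4 types tested against them, with log2 fold changes of -5.40 ± 0.22 for endothelial cells, -2.33 ± 0.17 for myeloid cells, -2.31 ± 0.18 for mesothelial cells and -2.21 ± 0.17 for SMCs relative to fibroblasts (the largest edgeR adjusted p was 9.5e-10). The antisense gene Gm16217 overlaps Lrp1, and whether the counting used strand was not stated. By cluster, Lrp1 was highest in cluster 8 at 1686 and 1604 CPM, and lowest in clusters 15 (502 and 540 CPM) and 17 (666 and 427 CPM), which overlapped.

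Among the 13 listed genes of the lipase system other than the members, 7 passed the low-count filter, and 3 of these were lower and 0 higher in endothelial cells than in fibroblasts. Of the background genes, those neither markers nor used in clustering, 23.0% were called in this comparison. Angptl4, a secreted inhibitor of LPL, was at 223 and 209 CPM in fibroblasts, against 23.5 and 19.1 CPM in the endothelium (log2 fold change -3.45 ± 0.15, edgeR adjusted p = 1e-13). Vldlr, a lipoprotein receptor, had 69.9 and 79.4 CPM in fibroblasts against 7.84 and 7.57 CPM in endothelial cells. Pcsk5, a proprotein convertase, had 91.4 and 92.6 CPM in fibroblasts and 1.66 and 1.95 CPM in myeloid cells (-5.51 ± 0.21). The gene Apoc2, which encodes the LPL activator, was at 151 and 89.1 CPM in myeloid cells, and in fibroblasts at 1.09 and 0.288 CPM.

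Gpihbp1 (chromosome 15, 75596628 to 75599481, plus strand), the endothelial anchor for LPL, was found almost only in endothelial cells, and among them in the capillary, lymphatic and venous sets described further on. Endothelial cells had 175 and 224 UMIs (54.9 and 89.2 CPM). SMCs had 1 and 1 UMI, fibroblasts 2 and 0, and mesothelial cells 2 and 0, too few for a fold. Endothelial cells held 90.2% and 90.3% of the gene's UMIs. Myeloid cells of aorta 2 had 23 UMIs, which came from 2 cells. These were 13 UMIs in a monocyte that also held 19 UMIs of endothelial markers and 88 of Fabp4, and 10 UMIs in a dendritic cell with 9 and 41. Lymphocytes of aorta 1 had 12 UMIs, 10 of them in a single cell with 16 UMIs of endothelial markers and 95 of Fabp4. The gene passed the low-count filter only through endothelial cells, so that its calls against other cell types are counted further on but no p is given. With a minimum of 5000 UMIs per cell endothelial cells kept only 14 and 6 Gpihbp1 UMIs.

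Cd36 (chromosome 5, 17781690 to 17888801, minus strand), the fatty acid translocase and scavenger receptor, was led by myeloid cells at 500 and 410 CPM. Endothelial cells had 66.5 and 117 CPM and mesothelial cells 60.1 and 56.9 CPM. SMCs (2.33 and 1.73 CPM) and fibroblasts (2.37 and 0.863 CPM) overlapped at the bottom, below lymphocytes (9.05 and 12.7 CPM). Myeloid cells were higher than endothelial cells (log2 fold change -2.63 ± 0.18 for endothelial against myeloid, edgeR adjusted p = 3.9e-11), and endothelial cells were higher than fibroblasts by 5.54 ± 0.31 (edgeR adjusted p = 2e-12).

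The intracellular carriers Fabp4 and Fabp5 are neighbours on chromosome 3. Fabp5 lies at 10012548 to 10016607 on the plus strand and Fabp4 at 10204088 to 10208576 on the minus strand, 187.48 kb apart with 4 protein-coding genes between them. They led in different cells. Fabp4 was at 481 and 855 CPM in endothelial cells. Without the capillary and venous sets described further on, these had 152 and 137 CPM. SMCs followed with 151 and 202 CPM, then myeloid cells with 102 and 144 CPM, mesothelial cells with 95.9 and 66.7 CPM and fibroblasts with 25.9 and 48.3 CPM. SMCs lay above myeloid cells in both aortas but did not pass the test against them (log2 fold change -0.45 ± 0.28 for myeloid against SMC). Against fibroblasts they were higher by 2.36 ± 0.29 (edgeR adjusted p = 6.2e-07). A Fabp4 UMI was present in 12.3% and 15.4% of thinned SMCs (42.2% and 49.9% unthinned, median depths 7743 and 7481.5 UMIs), against 1.29% and 1.10% of thinned lymphocytes (2.41% and 3.02% unthinned). The level across the 5 SMC clusters was between 38.4 and 177 CPM in aorta 1 and between 141 and 222 CPM in aorta 2.

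Fabp5 was foremost a mesothelial transcript. Mesothelial cells, which line the outer surface of the aorta, had 1383 and 1454 CPM, followed by myeloid cells (113 and 131 CPM) and endothelial cells (108 and 118 CPM), which overlapped. The remaining main types were between 25.7 and 37.8 CPM. The log2 fold change of mesothelial cells over fibroblasts was 5.25 ± 0.15 (edgeR adjusted p = 1.5e-16). Of thinned mesothelial cells, 62.5% and 67.9% had a UMI, against 1.93% and 2.47% of thinned lymphocytes. Part of the Fabp5 transcript sequence, 4.2% of its 60-base words, is shared with other genes (Gm6166, Gm14328 and Gm13998 among them), and such reads cannot be assigned. Both mesothelial clusters were high, the main cluster 11 at 1312 and 1496 CPM and the small Cxcl13 cluster 27 (19 and 5 cells) at 1898 and 885 CPM. Fabp4 separated them, with 22.6 and 17.9 CPM in cluster 11 and 631 and 728 CPM in cluster 27.

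Of the lists around these genes, fatty acid uptake and binding was mixed. In mesothelial cells against fibroblasts 3 of 11 genes were higher and 1 lower, and in SMCs against fibroblasts 3 were higher and 2 lower. Of the background genes, 22.2% and 23.3% were called in these comparisons. Fabp3, the heart-type binding protein, was at 92.9 and 105 CPM in SMCs, against 5.33 and 12.2 CPM in fibroblasts (log2 fold change 3.66 ± 0.24, edgeR adjusted p = 6.4e-11). Mesothelial cells, at 36.4 and 63.8 CPM of Fabp3, were also higher than fibroblasts (2.31 ± 0.34, edgeR adjusted p = 1.3e-05). Cav1, which encodes the caveolar coat protein, was at 834 and 923 CPM in the endothelium, against 59.0 and 77.4 CPM in fibroblasts (3.57 ± 0.15). The receptor gene Lrp2, encoding megalin, was at 254 and 214 CPM in mesothelial cells and at 0.0987 and 0.288 CPM in fibroblasts.

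Apoe (chromosome 7, 19696109 to 19699188, minus strand), which encodes the lipoprotein ligand and cholesterol acceptor, was led by myeloid cells at 14636 and 15967 CPM and was next highest in endothelial cells at 6410 and 6366 CPM. Mesothelial cells (1755 and 2077 CPM) and fibroblasts (2056 and 1507 CPM) overlapped. SMCs were lowest by mean, at 335 and 221 CPM. The log2 fold change of endothelial cells over SMCs was 4.30 ± 0.41 (edgeR adjusted p = 1e-08), and that of myeloid cells over endothelial cells corresponds to -1.55 ± 0.37 for endothelial against myeloid (edgeR adjusted p = 0.001). In thinned cells, 90.6% and 88.8% of myeloid cells had an Apoe UMI, against 12.5% and 11.3% of lymphocytes. Fibroblast cluster 17, led by Mab21l2, had 5622 and 3577 CPM, and cluster 12 had 127 and 186 CPM.

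Abca1 (chromosome 4, 53030787 to 53159895, minus strand), the cholesterol exporter, was 191 and 175 CPM in myeloid cells, 95.9 and 99.8 CPM in fibroblasts, 86.0 and 101 CPM in the endothelium and 76.1 and 79.5 CPM in mesothelial cells. Fibroblasts and endothelial cells overlapped. In SMCs the level was 11.4 and 12.4 CPM. Myeloid cells were higher than SMCs by 4.03 ± 0.12 (edgeR adjusted p = 2.1e-17) and higher than fibroblasts by 1.08 ± 0.10 (edgeR adjusted p = 4.3e-09). The latter was near the fold threshold and was between 0.87 and 0.92 with other scalings, DESeq2, doublets kept or a minimum of 5000 UMIs.

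Lipa (chromosome 19, 34492318 to 34527474, minus strand), the lysosomal acid lipase, was led by myeloid cells at 223 and 201 CPM. Fibroblasts (84.5 and 83.0 CPM) and lymphocytes (67.7 and 77.7 CPM) followed, and SMCs were lowest of the 6 main types at 21.3 and 16.0 CPM, while erythroid cells had 0 UMIs. Myeloid cells exceeded SMCs by a log2 fold change of 3.57 ± 0.12 (edgeR adjusted p = 8.2e-16) and fibroblasts by 1.51 ± 0.11. Thinned lymphocytes with a Lipa UMI made up 9.65% and 9.89% (25.1% and 27.7% unthinned), against 21.3% and 16.9% of thinned myeloid cells (64.2% and 60.7% unthinned, median depths 5543 and 5552.5 UMIs).

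Other genes of these routes were counted from the pathway lists. Of 10 listed genes of lysosomal lipid handling, all tested, 7 were higher and 1 lower in myeloid cells than in SMCs, and 5 were higher and 1 lower than in fibroblasts, where 41.6% and 38.0% of the background genes passed the same thresholds. In the cholesterol efflux list, 10 of 11 genes were tested, of which 7 were higher and 1 lower in myeloid cells than in SMCs and 6 higher and 1 lower than in fibroblasts. The median log2 fold change against SMCs was 1.70 for the lysosomal list and 2.80 for the efflux list, beside 0.01 over all genes fitted. Msr1, a scavenger receptor of macrophages, was 148 and 138 CPM in myeloid cells and 0.493 and 0.288 CPM in fibroblasts. SMCs instead had Sorl1, a sorting receptor that binds LPL and APOE, at 221 and 226 CPM against 16.2 and 12.2 CPM in fibroblasts (4.04 ± 0.14, edgeR adjusted p = 5.8e-16).

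Because Cd36, Lipa, Apoe and Abca1 were all highest in myeloid cells, the 100 bases upstream of a RefSeq start of each are shown (RefSeq, GRCm38.p6, minus strand for all 4, 5′ to 3′). RefSeq promoters were matched by symbol for 5 of the 9 members, Lrp1 being the other. Capitals mark matches on either strand to a TATA box, a GC box, a site of the myeloid factor PU.1 or the direct repeat bound by the liver X receptors (LXRs), searched as separate motifs with overlaps allowed. The LXRs are sterol-activated factors for which Abca1 and Apoe are textbook targets.
Cd36 (chr5:17835897-17835996): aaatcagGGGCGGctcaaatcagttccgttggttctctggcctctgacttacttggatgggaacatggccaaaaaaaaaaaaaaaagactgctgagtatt
Lipa (chr19:34527475-34527574): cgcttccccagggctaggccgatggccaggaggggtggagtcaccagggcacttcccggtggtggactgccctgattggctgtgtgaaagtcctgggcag
Apoe (chr7:19699189-19699288): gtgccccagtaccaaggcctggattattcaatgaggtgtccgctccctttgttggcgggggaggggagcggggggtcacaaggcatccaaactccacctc
Abca1 (chr4:53159896-53159995): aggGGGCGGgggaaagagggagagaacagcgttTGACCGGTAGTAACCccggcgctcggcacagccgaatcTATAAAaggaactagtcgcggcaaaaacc
The Abca1 window held the direct repeat at position -67, a GC box at position -97 and a TATA box at position -29, the Cd36 window a GC box at position -93, and the Lipa and Apoe windows none of the 4. In the further bases up to 250 before these starts, Cd36 held a GC box at -109, Abca1 a GC box at -163, and Lipa a PU.1 site at -183 and a TATA box at -239. Another RefSeq start of Apoe, inside the gene, had TATA boxes at -100 and -96. The Cd36 window lies upstream of a RefSeq start inside the annotated gene. Over the 250 bases upstream of all 32851 RefSeq promoters, the LXR direct repeat was found in 58 (0.177%). The letters of the TATA box, TATAAA, were found in 12.4% of them. For the GC box the letters searched were GGGCGG, present in 32.7% of the promoters. The PU.1 site was searched as GAGGAAG and was present in 10.6%. The matches describe letters in these windows and were not tested for use.

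Counts of members called follow for each comparison of cell types. Between endothelial cells and fibroblasts 7 of 9 were called (5 higher and 2 lower in endothelial cells), beside 23.0% of the 12626 genes tested that were neither markers nor used in clustering, the background also for the shares that follow. The members' median log2 fold change was 1.66, beside -0.03 over all genes. Between endothelial cells and SMCs 8 of 9 were called (7 higher, 1 lower), beside 27.5%. Between endothelial and myeloid cells 8 of 9 were called (2 higher, 6 lower), beside 32.4%. The 2 higher were Fabp4 and Gpihbp1, and both calls were lost with a minimum of 5000 UMIs (0.27 for each), Fabp4 turning to -0.59 and -0.58 with doublets kept and at Leiden resolution 2, and Gpihbp1 losing its call with DESeq2. Myeloid cells differed from fibroblasts in 8 of 9 (7 higher, 1 lower), beside 38.0%, and from SMCs in 7 of 9 (7 higher, with a median of 3.57 over the 9 beside 0.01 over all genes), beside 41.6%. SMCs differed from fibroblasts in 6 of 9 (1 higher, 5 lower), beside 23.3%, and mesothelial cells from fibroblasts in 6 of 9 (3 higher, 3 lower), beside 22.2%. The comparisons share cell types and aortas and are not independent. Each count of members higher in endothelial cells includes Gpihbp1, which passed the low-count filter only through those cells, so its call adds no support. In the counts for myeloid cells Gpihbp1 was among the members called higher, and its 25 UMIs there came from 3 cells.

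Summed over cells, the transcripts that an analysis of whole aorta would measure came from different types. Of Gpihbp1 UMIs, 90.3% ± 0.0823 (SD, n = 2) were in endothelial cells. This share was 19.4% with doublets kept and 20.0% at Leiden resolution 2, where the cells richest in Fabp4 stayed unnamed, and 31.7% with a minimum of 5000 UMIs. Of Cd36 UMIs 83.1% ± 6.60 were in myeloid cells (87.8% and 78.5%). Fibroblasts gave 71.9% ± 2.15 of Lpl UMIs and 67.1% ± 0.0815 of Lrp1 UMIs, and myeloid cells 63.6% ± 0.791 of Apoe UMIs. Mesothelial cells gave 53.8% ± 5.09 of Fabp5 UMIs from 4.21% and 3.45% of the cells. Fabp4 was highest per cell in endothelium, but SMCs held the largest share of its UMIs (47.8% and 42.9%), ahead of endothelial cells (29.1% and 39.5%). Lipa was shared by myeloid cells (42.6% ± 3.32) and fibroblasts (30.3% ± 2.50). Abca1 changed leader between the aortas, with 41.4% and 34.3% in myeloid cells and 34.8% and 37.9% in fibroblasts. The shares are of the cells that the digestion released and the sort kept.

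**Figure D3:**
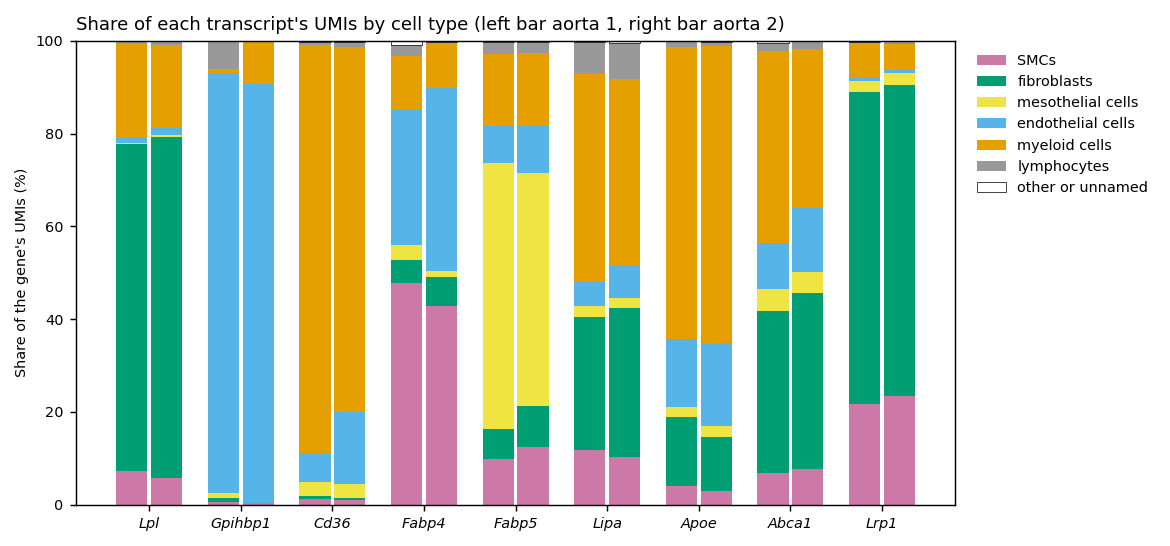
Share (%) of each member's UMIs by cell type in aorta 1 (left bar) and aorta 2 (right bar), adding to 100% of the UMIs in analysed cells. For 6 of the 9 genes a single cell type held over 50% of the UMIs on average.

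A second clustering, of the endothelial cells alone, showed Gpihbp1, Cd36 and Fabp4 concentrated in small sets of endothelial cells. Of the 5 named subsets, the Emcn-set (308 and 285 cells) and the Sema3g-set (207 and 162 cells) were largest, followed by lymphatic cells (46 and 75), a venous-marker set (20 and 15) and a capillary-marker set (14 and 26). Unnamed subclusters made up 24.3% and 22.6% of endothelial cells, among them a subcluster led by Lum and Dcn and another led by SMC genes. They held 49.3% and 9.43% of endothelial Lpl UMIs and 37.0% and 45.7% of endothelial Lrp1 UMIs. The named subsets took their names from marker genes, so the levels of these markers describe the subsets and do not test them. In the capillary set Rgcc was 943 and 1437 CPM against 1.91 and 2.85 CPM in other endothelial cells, and Car4 was 407 and 513 CPM. The markers of the venous set were less even. Nr2f2 was 418 and 258 CPM against 38.0 and 45.0 CPM, and Ackr1 was 49.2 and 141 CPM (4 and 6 UMIs) against 0.644 and 0 CPM. Selp (271 and 164 CPM) was near or below the rest (269 and 250 CPM).

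In the capillary set Gpihbp1 reached 2401 and 2703 CPM (112 and 158 UMIs). Lymphatic cells had 161 and 243 CPM (26 and 60 UMIs), the venous set 381 and 46.9 CPM (31 and 2 UMIs), the Emcn-set 1 and 0 UMIs and the Sema3g-set 0 and 0 UMIs. A count of 0 over the 844498 and 596916 UMIs of the Sema3g-set allows up to 3 UMIs per library. The capillary and lymphatic cells lay above the Emcn- and Sema3g-sets in both aortas, and the venous set did so mainly in aorta 1. Thinned cells with a Gpihbp1 UMI made up 64.3% and 84.6% of the capillary set, 0.325% and 0% of the Emcn-set and 0.322% and 0% of lymphocytes.

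Cd36 was 2187 and 3148 CPM in the capillary set and 935 and 1735 CPM in the venous set, against 3.84 and 1.83 CPM (5 and 2 UMIs) in the Emcn-set and 2 and 0 UMIs in the Sema3g-set. Fabp4 was 12842 and 25610 CPM in the capillary set, 5782 and 7551 CPM in the venous set, 82.2 and 51.2 CPM in the Emcn-set and 152 and 92.1 CPM in the Sema3g-set. Capillary-set cells, 1.78% and 3.58% of endothelial cells, held 64.0% and 70.5% of endothelial Gpihbp1 UMIs, 48.1% and 62.8% of Cd36 UMIs and 39.0% and 69.7% of Fabp4 UMIs. The venous set held 17.7% and 0.893% of the Gpihbp1 UMIs, 35.8% and 25.3% of the Cd36 UMIs and 30.6% and 14.99% of the Fabp4 UMIs. Without the capillary and venous sets, endothelial cells had 11.1 and 14.5 CPM of Cd36, 152 and 137 CPM of Fabp4 and 10.5 and 26.6 CPM of Gpihbp1. In those cells Fabp4 overlapped SMCs (151 and 202 CPM). The fold change of Fabp4 in all endothelial cells over SMCs, 1.71 ± 0.27 (edgeR adjusted p = 1.3e-05), was 0.12 with a minimum of 5000 UMIs and turned to -0.95 and -1.01 with doublets kept or a finer clustering, where the Fabp4-rich cells stayed unnamed.

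Capillary-set cells had 772 and 1266 CPM of Fabp5 and 279 and 376 CPM of Lpl, the latter from 13 and 22 UMIs, against 7 and 2 Lpl UMIs in the Emcn-set and 1 and 0 in the Sema3g-set. Apoe was 3173 and 3832 CPM there, against 9601 and 8961 CPM in the Emcn-set and 5022 and 6865 CPM in the Sema3g-set. Lrp1 was under the low-count filter in endothelial subsets. Only 2 and 2 of the capillary-set cells had 5000 UMIs or more, and the set was chosen for description after its levels were seen, so no test of it is given.

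Markers of other cells were counted in the capillary set. The 8 myeloid markers summed to 1994 and 770 CPM, against 36.7 to 97.4 CPM in the 4 other endothelial subsets, and none of the 8 was at 0. Their part in the result was not tested. Cd36 was 832 and 651 CPM in the myeloid subset where it was highest, the Folr2-set. The 6 adipocyte markers had 0 and 7 UMIs there (0 and 120 CPM), against at most 1.18 CPM in the 4 other endothelial subsets. In aorta 2 these were 1 UMI of Adipoq and 2 each of Cidec, Cidea and Ucp1, while Plin1 and Retn were at 0 in both aortas. Fat cells also express Fabp4, Cd36 and Lpl, and their part in the result was not tested. Among listed genes, the transcription factor Tcf15 was 1243 and 1095 CPM in the capillary set against 1.18 and 0.457 CPM as the mean of the levels in the Emcn- and Sema3g-sets. Mgll, which encodes monoacylglycerol lipase, the last step of triglyceride breakdown, was 1544 and 1762 CPM against 91.6 and 40.4 CPM.

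**Figure D4:**
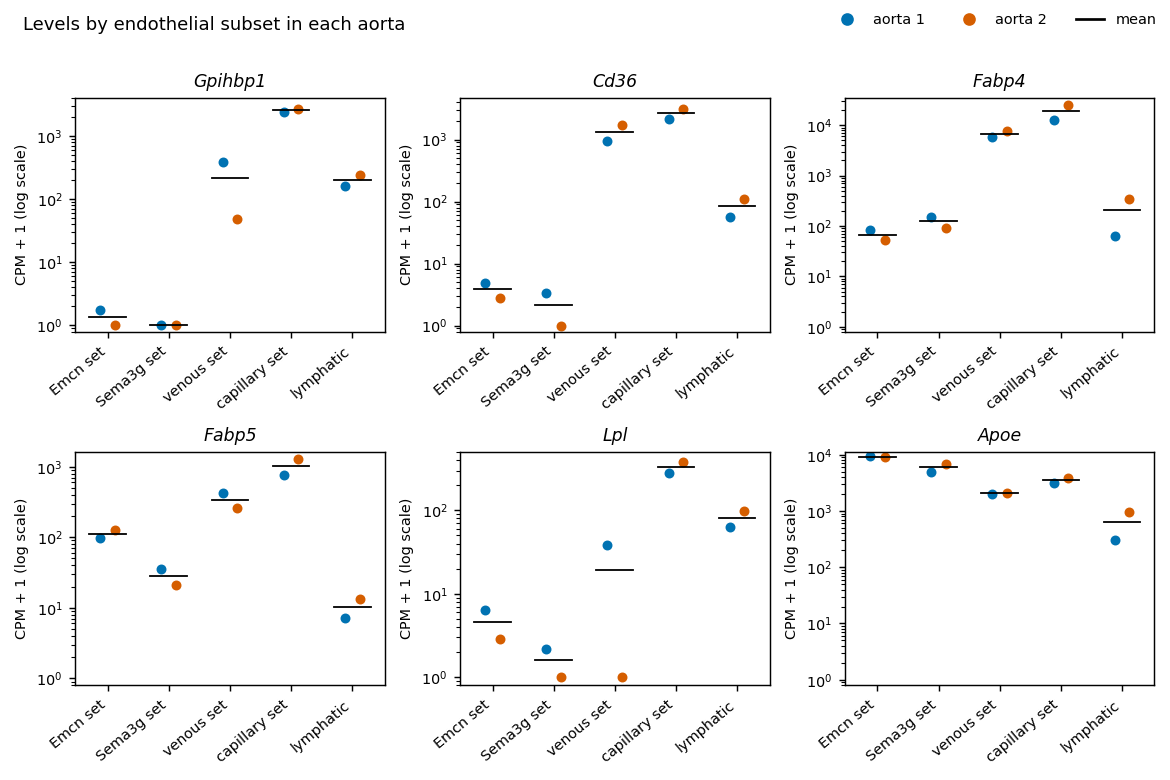
Levels (CPM + 1, log scale) of 6 members in the 5 endothelial subsets, with a point per aorta and a line at the mean. Gpihbp1, Cd36, Fabp4, Fabp5 and Lpl are highest in the capillary set, while Apoe is highest in the Emcn-set.

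Between the 2 large blood endothelial subsets, the Sema3g- and Emcn-sets, 1 of 8 members tested was called, beside 1.84% of the background genes. The number was 2 or 3 under several alternatives and without either aorta. The member called was Fabp5, at 34.3 and 20.1 CPM in the Sema3g-set and 96.9 and 127 CPM in the Emcn-set (-1.99 ± 0.28, edgeR adjusted p = 1e-05). The call was lost with doublets kept (-0.70). Apoe varied more by subcluster than by set. An Emcn-set subcluster led by Sfrp2 had 14368 and 14302 CPM, and a Sema3g-set subcluster led by Igf2 had 1002 and 605 CPM.

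Lymphatic endothelial cells carried Gpihbp1 and Lpl with few Fabp5 UMIs. Against the mean of the log levels of the 4 blood subsets, 5 of 8 members were called (2 higher, 3 lower), beside 11.0% of genes. In this mean the low levels of the Emcn- and Sema3g-sets count as much as the high ones of the capillary set. Gpihbp1 and Lpl were the 2 called higher. Their levels in the Emcn-, Sema3g- and, for Lpl, venous sets rest on 0 to 7 UMIs, so no fold or p is given, and both were lower in lymphatic cells than in the capillary set (Lpl 62.0 and 97.4 CPM in lymphatic cells). Fabp5 was lower, with 1 and 3 UMIs (6.20 and 12.2 CPM, edgeR adjusted p = 8.2e-08), as was Apoe at 310 and 958 CPM (-2.81 ± 0.25, edgeR adjusted p = 5.3e-10), though with a minimum of 5000 UMIs the Apoe call was lost (-0.77). Fabp4 was lower at 62.0 and 345 CPM (-2.25 ± 0.33), and this sign changed with the processing. The Emcn-set had 82.2 and 51.2 CPM and the Sema3g-set 152 and 92.1 CPM, above lymphatic cells in aorta 1 and below them in aorta 2. The difference turned to 3.15 and 3.98 with doublets kept and at Leiden resolution 2, where the cells richest in Fabp4 stayed unnamed. It turned to 2.09 at a minimum of 5000 UMIs, where Fabp5 also turned, to 1.20. Under each of these settings fewer than the 4 blood subsets remained, so the comparison was with a smaller group. Abca1 was 180 and 154 CPM in lymphatic cells and did not pass the fold threshold (0.91 ± 0.25).

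Members differed in direction between macrophage subsets. Folr2-set macrophages, which carry the resident markers Folr2, Lyve1 and Cd163, numbered 556 and 342 cells, and the other macrophages 188 and 119. Cd36 was 832 and 651 CPM in the Folr2-set and 203 and 186 CPM in the others (1.76 ± 0.16, edgeR adjusted p = 1.1e-07). The Folr2-set, 60.6% and 60.9% of myeloid cells, held 77.0% and 77.8% of myeloid Cd36 UMIs. Abca1 was 302 and 284 CPM against 114 and 109 CPM (1.22 ± 0.15, edgeR adjusted p = 5.9e-06). The opposite held for Lpl, at 20.0 and 25.6 CPM in the Folr2-set and 299 and 316 CPM in the others (-3.94 ± 0.26, edgeR adjusted p = 1.5e-09). Fabp5 was at 3.22 and 2.27 CPM in the Folr2-set against 270 and 387 CPM (-6.94 ± 0.38, edgeR adjusted p = 1.8e-10). For Fabp4 the levels were 10.7 and 10.2 CPM against 291 and 303 CPM (-4.97 ± 0.56, edgeR adjusted p = 1.7e-06). Groups did not overlap for any of these 5, which were 5 of 9 members tested beside 10.4% of genes. Apoe (20096 and 22338 CPM against 13871 and 14801 CPM), Lipa and Lrp1 did not pass the test. At Leiden resolution 2 the set named other macrophages had 590417 and 286598 UMIs, in place of 1778387 and 1015986, and 0 of 8 members were called (3 at an unadjusted edgeR p under 0.05), with Cd36 at 0.95 and Fabp4 at 1.45.

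The other macrophages were themselves mixed. The subcluster led by Mmp12 (111 and 70 cells) had 351 and 387 CPM of Lpl but 1 and 2 UMIs of Fabp4. The subcluster led by Slpi, with Alox15, Prg4 and Saa3 (42 and 30 cells), genes known from macrophages of the serous cavities, had 711 and 800 CPM of Fabp4, 595 and 957 CPM of Fabp5 and 341 and 320 CPM of Lpl. This subcluster held 481 and 300 Fabp4 UMIs, and the Marco subcluster (35 and 19 cells), the remaining one, held 36 and 6. Lpl was highest in a myeloid subcluster that stayed unnamed (40 and 25 cells) and was led by Lyz1, with Ear2 and Ccr2 among its leading genes, at 1209 and 1049 CPM.

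**Figure D5:**
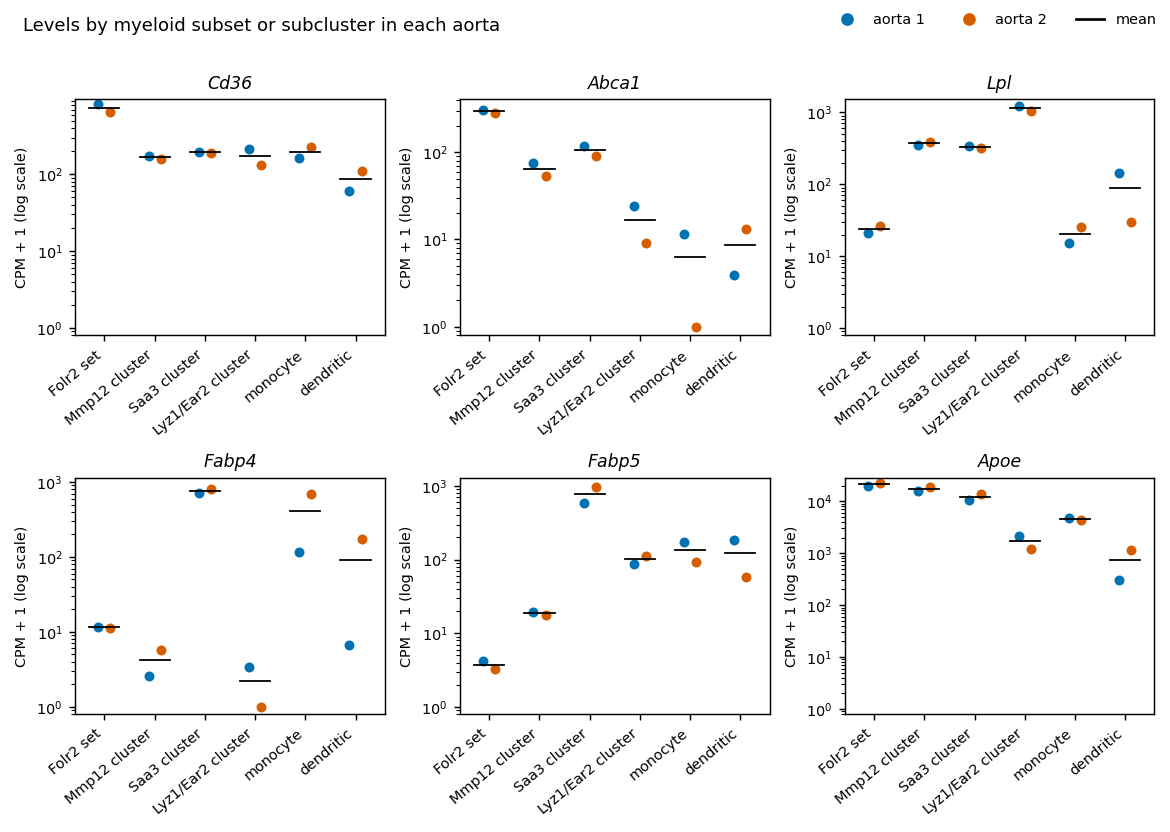
Levels (CPM + 1, log scale) of 6 members in myeloid subsets or subclusters, with a point per aorta and a line at the mean. Among the groups drawn, Cd36 and Abca1 are highest in Folr2-set macrophages, Fabp4 and Fabp5 in the Saa3 subcluster, and Lpl in the Lyz1/Ear2 subcluster.

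Of the listed genes, 57 were tested between the macrophage subsets, 5 higher and 13 lower in the Folr2-set. Lipoprotein receptors were the list with most calls, 0 higher and 6 lower of 8, beside 10.4% of the background genes called in either direction. Pltp, which encodes the phospholipid transfer protein, was 1339 and 1532 CPM in the Folr2-set and 404 and 302 CPM in the others (1.84 ± 0.18). Abcg1, a cholesterol exporter to HDL, was 5.01 and 5.11 CPM in the Folr2-set and 77.0 and 79.7 CPM in the others (-4.09 ± 0.24, edgeR adjusted p = 3.7e-10), opposite in direction to Abca1. Apoc2 was 10.4 and 11.9 CPM against 268 and 183 CPM (-4.53 ± 0.34).

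Monocytes (47 and 30 cells) and dendritic cells (33 and 29 cells) had little Abca1. Monocytes had 3 and 0 UMIs and dendritic cells 1 and 3, while both macrophage subsets were at 109 CPM or more in both aortas. Apoe was 4692 and 4271 CPM in monocytes and 303 and 1151 CPM in dendritic cells, lower than in macrophages in both comparisons (log2 fold changes of macrophages 1.99 ± 0.27 and 4.53 ± 0.32, edgeR adjusted p = 2.1e-05 and 7.9e-09). Cd36 in macrophages was called higher by 1.05 ± 0.20 than in monocytes and by 2.10 ± 0.23 than in dendritic cells. Monocytes (163 and 224 CPM) overlapped the other macrophages (203 and 186 CPM) and lay below the Folr2-set alone, and with doublets kept it was under the fold threshold (0.90). Lrp1 was 348 and 267 CPM in monocytes, not different by the test, and 54.8 and 20.4 CPM in dendritic cells (2.44 ± 0.29, edgeR adjusted p = 5e-06). Fabp5 was called lower in macrophages than in monocytes (-2.17 ± 0.43) and than in dendritic cells (-2.18 ± 0.41), where macrophages are the mean of the log levels of 2 opposite subsets. Monocytes had 174 and 93.3 CPM and dendritic cells 185 and 57.1 CPM, above the Folr2-set (3.22 and 2.27 CPM) but below the other macrophages (270 and 387 CPM). In all, 8 of 9 members were called against monocytes (5 higher, 3 lower), beside 14.5% of genes, and 7 of 9 against dendritic cells (5 higher, 2 lower), beside 14.2%. These counts include Gpihbp1, called lower in macrophages from 1 cell of aorta 2 in each comparison, and without aorta 2 its difference turned to 0.54. Fabp4 was also called lower against monocytes (-2.61 ± 0.54), where 88 of the 112 Fabp4 UMIs in monocytes of aorta 2 were in that same cell, and the call was lost with DESeq2 (adjusted p = 0.097) and with doublets kept (-0.51). Lpl against monocytes (2.22 ± 0.59) turned to -0.61 at a minimum of 5000 UMIs and to -1.64 at Leiden resolution 2. Lipa against monocytes was at the fold threshold (1.00 ± 0.26) and lost its call in several refits (0.67 to 0.996). The count called against monocytes was smaller in some refits, as given further on.

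The genes whose pattern was most like a member were looked for over 54 sums (27 clusters in each aorta) by Pearson's r of log2(CPM + 10). This is a description, since clusters of an aorta share a library and depth. The closest was Rbp7 to Gpihbp1 (r = 0.96). For Abca1 it was Rgl1 (0.88), for Lipa Cebpg (0.86), for Cd36 Smagp (0.84), for Lpl Fmnl2 (0.83), for Apoe Cxcl16 (0.79), for Fabp4 Tcim (0.72) and for Fabp5 Bst1 (0.69).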

How the data were processed

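Libraries were made with the 10x Genomics 3′ kit. The authors deposited raw UMI counts for each gene in each cell, from Cell Ranger 4.0.0 (file header) on mm10 with eGFP and tdTomato added. Strand use was not stated. Library totals were 47009780 and 30919996 UMIs. Cells were filtered as described above, and Scrublet called 205 (3.04%) and 84 (1.79%) doublets, which were removed. Clustering used scanpy 1.11.5 (2000 variable genes, 30 components, 15 neighbours, Leiden resolution 1) without the 9 members and 84 pathway genes. A cluster was named where at least 3 markers were detected in 25% of its cells (10% for subsets, set after the subcluster tables were seen). Sums of UMIs over the cells of a type or subset in an aorta were tested with edgeR 4.0.16 (TMM, quasi-likelihood) in models over all types, endothelial subsets or myeloid subsets, fitting 13951, 5372 and 7923 genes. SEs were derived from the fold change and the F statistic. Background shares leave out marker genes and genes used in clustering. The script was tested on simulated data. Fold changes and levels are not compared between genes. Same-numbered sums come from the same animal, so a fit with aorta as a block was an alternative.

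The members, marker lists and pathway lists were chosen with earlier results of these data known. Named genes were all members, in each contrast up to 3 pathway genes a direction with the largest fold change among those called with at least 50 UMIs in the higher type, and for each member the most similar genes. Not every gene so chosen is described, and 1 result is not reported here. Gene positions are from GENCODE vM21 and promoters from RefSeq (GRCm38.p6). Intervals and floors (3 UMIs) cover counting error only.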

Additional observations from a re-analysis of the deposited data

How the results depend on the processing

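There were 82 called member differences, the calls of Gpihbp1 included. Of these, 6 were in a contrast of the capillary set chosen after the data were seen and given above only as levels. Of the 82, 61 kept their direction and call under every refit run, and 10 turned in at least 1 refit or without an aorta. Among the 10, Gpihbp1 in macrophages against monocytes and against dendritic cells turned only without aorta 2. Fabp4 in endothelial cells against SMCs was -0.95 with doublets kept and -1.01 at Leiden resolution 2, and against myeloid cells -0.59 and -0.58. In lymphatic against blood endothelial cells, with the blood mean then over fewer than its 4 subsets, Fabp4 was 3.15 and 3.98 under the same settings. It was 2.09 with 5000 to 25000 UMIs per cell, where Fabp5 was 1.20. Under both of the former settings the Fabp4-rich endothelial cells stayed unnamed (1252 and 1985, or 1232 and 1937, Fabp4 UMIs in unnamed cells, against 6 and 2), and the endothelial share of Gpihbp1 UMIs was 19.4% and 20.0%. It was 31.7% at the minimum of 5000 UMIs. At Leiden resolution 2 the Folr2-set against other macrophages gave Fabp5 0.044, Fabp4 1.45 and Abca1 -0.0078, and 0 members called (3 at an unadjusted edgeR p under 0.05). Lpl in macrophages against monocytes was -0.61 at 5000 to 25000 UMIs and -1.64 at Leiden resolution 2, and members called numbered 5 at 5000 to 25000 UMIs and 3 with doublets kept. Gpihbp1 in macrophages against monocytes and dendritic cells was 0.54 without aorta 2, and -6.35 and -5.39 without aorta 1. Between the Sema3g- and Emcn-sets 2 members were called with no UMI limits, doublets kept, Leiden resolution 0.5 or no low-count filter, and 3 at Leiden resolution 2. Leaving out an aorta, members past the fold threshold numbered 2 to 3 between the Sema3g- and Emcn-sets and 5 to 7 between macrophages and monocytes.

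With aorta as a replicate block, a pairing by animal, 82 of 82 calls held. Other scalings moved the called members of a comparison together, by a median log2 shift between -0.25 (SMCs against fibroblasts, RLE size factors) and 0.29 (endothelial against myeloid cells, total UMIs alone), and turned none. Another 11 differences lost their call in at least 1 refit without turning, among them Fabp4 in mesothelial cells against fibroblasts (0.79 to 1.13) and Abca1 in myeloid cells against fibroblasts. The capillary contrast could not be fitted with doublets kept, at Leiden resolution 2 or at 5000 UMIs, nor the Sema3g- against Emcn-set contrast at 5000 UMIs, nor macrophages against dendritic cells at Leiden resolution 0.5. With 2 aortas and 40 capillary-set cells, differences between aortas cannot be told from sampling of few cells.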

Other observations

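Some values fall outside the comparisons. Lymphocyte cluster 13, with the genes of developing lymphocytes Rag1 and Dntt and the T-cell receptor genes Trbc1 and Trbc2 among its leading genes, had 151 and 127 CPM of Lipa, above the lymphocyte mean of 72.7 ± 7.04 CPM (SD, n = 2). Monocyte subcluster 11, led by Ace and with Treml4 among its leading genes, a profile known from patrolling monocytes, had 278 and 1633 CPM of Fabp4, whereas subcluster 13, led by Ly6c2, had 0 and 0 UMIs. In aorta 2 part of the former came from the cell that also held Gpihbp1 (88 Fabp4 UMIs of 112). Cidea was the only 1 of the 6 adipocyte markers above 1 CPM in SMCs, at 32.6 and 38.4 CPM, and Adipoq, Plin1 and Retn had 0 UMIs there. Among the listed regulators, Meox2, a transcription factor known from endothelium, was at 89.0 and 92.1 CPM in fibroblasts, 19.1 and 27.9 CPM in the endothelium and 1.02 and 0.605 CPM in SMCs (log2 fold change of SMCs against fibroblasts -6.60 ± 0.22, edgeR adjusted p = 1.2e-15). G0s2, an inhibitor of triglyceride lipase, was at 28.9 and 77.3 CPM in the endothelium, 50.7 and 59.7 CPM in fibroblasts, and 0.778 and 1.04 CPM in SMCs.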
